A study of Mus musculus with 6 samples.

Results

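The genes described here are 10 mouse genes of the immediate early response: Egr1, Egr2 and Egr3, Nr4a1, Nr4a2 and Nr4a3, Ier2, Ier3 and Ier5, and Srf. They were chosen by name, and each symbol was carried by exactly 1 of the 25001 loci in the deposited expression files, so that all 10 were found. RNA was sequenced from 427.1.86 thymoma cells (427 cells), a mouse line that makes the membrane serine protease epithin/PRSS14, in 6 libraries with 1 library for each condition. The 427 cells, wild type in the labels and carrying the empty pSUPER vector, received DMSO or PMA, and cells labelled as a knockdown of SPPL2b received the same. SPPL2b is the membrane protease studied as the enzyme that frees the intracellular domain of epithin (EICD), and PMA is a phorbol ester that activates protein kinase C and induces shedding of epithin. Cells were kept 2 h in serum-free medium before 2 h of DMSO or 1 µM PMA. The remaining libraries came from knockdown-labelled cells transfected with a GFP vector, or with GFP and Flag-tagged EICD, and sorted for GFP. For these libraries the labels give neither a serum-free period nor PMA. The study's methods describe single-cell clones carrying an shRNA against SPPL2b and name 1 clone for the sorted cells, while the labels of the knockdown libraries give an siRNA and no clone.

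Immediate early genes are switched on by growth factor, stress and phorbol ester signals without the need for new protein, and many of their mRNAs are short-lived, so that their levels rise and fall again quickly. Srf is the serum response factor, a transcription factor that binds the CArG box of serum response elements together with ternary complex factors such as Elk1 and with actin-regulated coactivators. The Egr genes encode zinc finger transcription factors that are classical targets of ERK signalling through Srf. The Nr4a genes encode orphan nuclear receptors that are controlled mainly by how much of them is made, and CREB at cAMP response elements is a known regulator of them. Ier3 is an inducible regulator of cell survival, Ier2 is a nuclear protein linked to cell motility, and Ier5 takes part in the heat shock response.

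The values are FPKM, fragments per kilobase of exon scaled to the depth of the library, which allow levels of different genes to be set side by side. From the smallest steps between low values, each library was estimated to hold between 2.6e+07 and 3.05e+07 fragments. Sppl2b, the targeted gene, was not lower in the libraries labelled as its knockdown, with an FPKM of 9.90 in 427 cells and 13.4 in knockdown-labelled cells with DMSO, and of 6.86 and 9.37 with PMA. The label therefore goes against the Sppl2b level in these libraries, and they are called KD-labelled throughout. The study itself describes its knockdown clones as checked by real-time PCR for SPPL2b mRNA. It also reports that less EICD was formed in them after PMA. St14, the gene of epithin, had an FPKM of 614.5 in the library with EICD and between 69.6 and 105.4 in the other libraries. The transfected EICD is itself a part of epithin, so its transcripts and those of the cells' own St14 cannot be told apart in this value. All 7 epithelial markers examined, among them Krt5, Krt14, Epcam, Cdh1 and the thymic epithelial factor Foxn1, reached 1 FPKM in every library. The 7 T lymphoid markers summed to between 1.96 and 3.68 FPKM, with Cd3e, Cd4 and Thy1 listed at 0 throughout and Rag1 alone reaching 1 FPKM. The defining T cell markers were thus absent or near 0 in a line labelled as thymoma, and the epithelial markers were present. Fibroblast, endothelial and myeloid markers summed to at most 0.501, 0.282 and 2.65 FPKM. With 1 library per condition there is no replicate error, no p-value was computed, and every difference below compares 2 libraries and not 2 conditions.

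The sequences upstream of the genes are shown first, since the families differ in the elements that are known to drive them. RefSeq (GRCm38.p6) gave start sites for 7 of the 10 genes, which left out Egr1, Egr3 and Ier2. In the 250 bases before each start, both strands were searched for the CArG box, for TGACG, the core of the cAMP response element that also forms part of the full TGACGTCA, and for GCGNGGGCG, a site bound by Egr proteins. Srf and Egr2 are shown for their CArG boxes, which are in capitals, and in Egr2 the TGACG matches are in capitals too. The Srf stretch is chr17:46556207-46556272 on the minus strand, upstream of the gene. The Egr2 stretch is chr10:67537744-67537829 on the plus strand, between alternative starts within the locus, and neither overlaps an annotated exon.
Srf: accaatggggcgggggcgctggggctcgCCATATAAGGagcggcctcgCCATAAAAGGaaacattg
Egr2: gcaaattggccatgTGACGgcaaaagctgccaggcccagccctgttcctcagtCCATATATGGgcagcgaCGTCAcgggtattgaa

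The Srf promoter held 2 CArG boxes, the nearer of them ending 53 bases before the start, and of 32851 promoter windows of the same length 0.0183% held at least 2 and 1.47% at least 1. Egr2 has 5 annotated starts, and the windows before 4 of them held 1 CArG box each, 3 of these windows sharing the same box. The windows of the other 5 genes held none.

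The 3 Nr4a promoters each held 4 matches to TGACG on either strand, shown in capitals, where the reverse strand reads CGTCA. At least 1 match was present in 17.8% of all promoter windows and at least 4 in 0.137%, and these windows were not matched for base composition. The Egr2 windows held up to 2 matches and the Srf window 1. The full TGACGTCA, found in 1.55% of all windows, was in none of the 7 genes' windows. The stretches are chr15:101266606-101266816 on the plus strand for Nr4a1, chr2:57124063-57124213 on the minus strand for Nr4a2, and chr4:48045065-48045150 on the plus strand for Nr4a3, where the fourth match lies nearer to the start and is not shown. None of them overlaps an annotated exon, and the Nr4a1 stretch lies within the locus of the files, which begins farther upstream.
Nr4a1: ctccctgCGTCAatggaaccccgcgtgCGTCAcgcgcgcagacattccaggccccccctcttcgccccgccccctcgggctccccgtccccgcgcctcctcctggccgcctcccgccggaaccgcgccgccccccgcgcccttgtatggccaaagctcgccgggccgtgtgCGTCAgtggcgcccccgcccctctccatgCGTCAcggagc
Nr4a2: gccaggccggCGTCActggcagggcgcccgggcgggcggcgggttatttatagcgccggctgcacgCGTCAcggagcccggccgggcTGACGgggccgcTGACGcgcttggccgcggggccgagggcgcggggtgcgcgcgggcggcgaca
Nr4a3: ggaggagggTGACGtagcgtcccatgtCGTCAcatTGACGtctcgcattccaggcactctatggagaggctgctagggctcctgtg

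GCGNGGGCG was found once each before Srf, Nr4a1 and Nr4a2, against 4.70% of all windows, and Ier3 and Ier5 held none of the motifs searched. These matches are letters in a window and were not tested for binding. The Nr4a genes, with the same number of TGACG matches, had their highest levels in 3 different libraries.

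**Figure D1:**
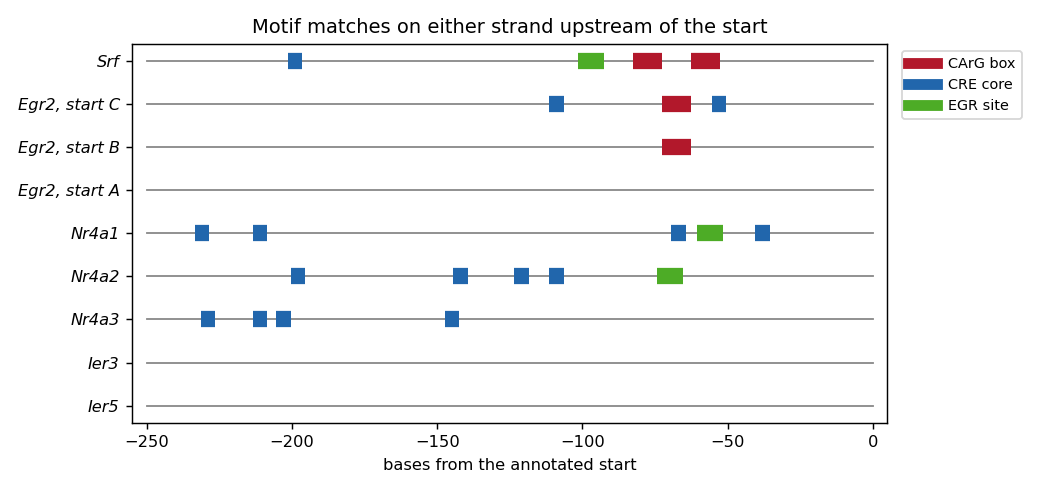
Matches to the 3 motifs on either strand in the 250 bases before annotated starts, by distance from the start in bases. Srf has 2 CArG boxes and each Nr4a gene 4 matches to the TGACG core, and the windows of Ier3 and Ier5 are empty. Starts A to C are 3 of the 5 starts of Egr2.

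The levels of the 10 genes spanned a wide range. In 427 cells with DMSO, Ier3 (33.4 FPKM), Ier5 (30.2), Srf (28.3) and Ier2 (25.8) lay highest and close together. Egr1 followed at 10.3, then Nr4a2 at 3.09 and Nr4a1 at 2.85, while Egr3, Egr2 and Nr4a3 were at 0.349, 0.230 and 0.157. Ier3 led the order in every library except KD-labelled DMSO, where Srf was at 23.5, Ier5 at 22.2 and Ier3 at 18.8, and Nr4a3 was the lowest everywhere except in 427 cells with PMA, where Egr2 was lower.

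Summed by family, the Ier genes lay between 57.8 FPKM in the KD-labelled DMSO library and 415.1 in 427 cells with PMA. The Egr sum lay between 5.22 and 178.9 and was mostly Egr1, and the Nr4a sum between 6.05 and 32.2.

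The spread between libraries separated the genes further. The highest level was 38.4 times the lowest for Egr2, 37.7 times for Egr3, 34.1 times for Egr1, 30.8 times for Nr4a3, 18.1 times for Ier3, 11.7 times for Nr4a1 and 8.07 times for Ier2. Srf, Nr4a2 and Ier5 differed at most 2.09, 2.06 and 1.94 times. The KD-labelled DMSO library held the lowest value for 8 of the 10 genes, all except Srf and Nr4a2. The highest value lay in the GFP plus EICD library for 6 genes, in 427 cells with PMA for Ier3, Nr4a3 and Srf, and in the GFP library for Nr4a2.

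**Figure D2:**
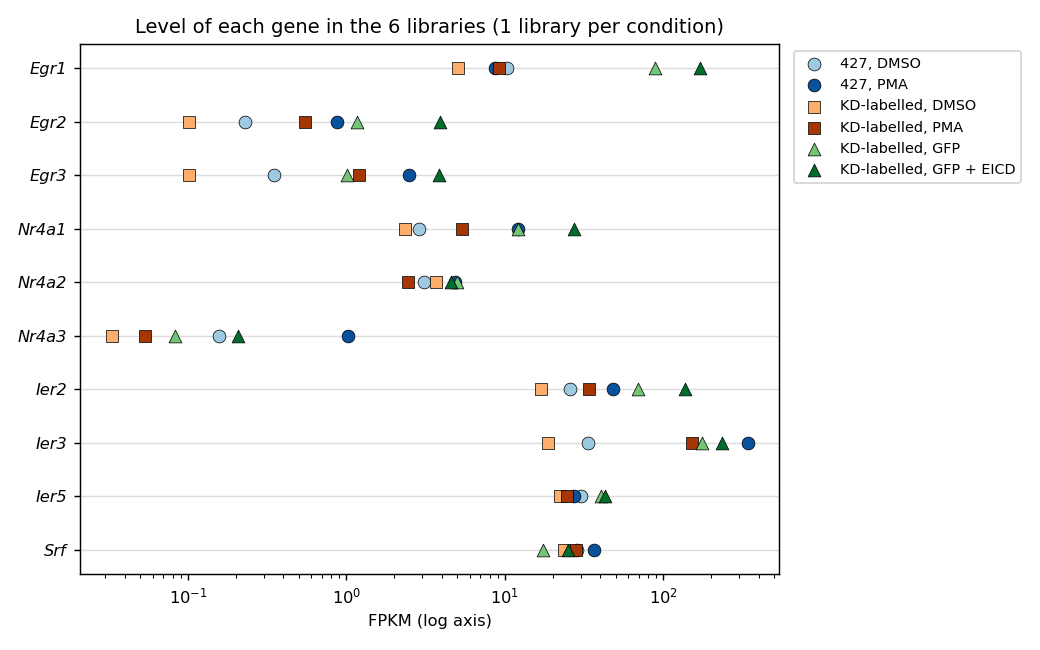
FPKM of the 10 genes on a log axis, with 1 point for each of the 6 libraries. Egr1 and Ier2 are highest in both GFP-sorted libraries, Ier3 is highest in 427 cells with PMA (339.6 FPKM), and Ier5, Srf and Nr4a2 stay within a narrow range.

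The first question was how these genes differed between DMSO and 2 h of PMA. Ier3 (GRCm38 chromosome 17, 35821684 to 35822923) was at 33.4 FPKM in 427 cells with DMSO and 339.6 with PMA, and at 18.8 and 151.6 in KD-labelled cells. The log2 fold changes were 3.35 and 3.01, which placed Ier3 at rank 42 of 10643 and rank 45 of 10624 loci by increase. In both cell labels the PMA library was far above its DMSO library. Ier3 had the largest PMA increase of the 10 genes in 427 cells, and in KD-labelled cells Egr3 exceeded it from a level near 0.

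Among the Egr genes, Egr3 and Egr2 were higher with PMA in both cell labels, and Egr1 was not. Egr3 (chromosome 14, 70077295 to 70082984) was at 0.349 FPKM with DMSO and 2.47 with PMA in 427 cells, and at 0.101 and 1.197 in KD-labelled cells, with log2 fold changes of 2.79 and 3.44. The 0.101 corresponds to an estimated 10 fragments, and the approximate 95% counting interval of the second value ran from 2.69 to 4.71. Egr2 was at 0.230 and 0.870 FPKM in 427 cells and at 0.102 and 0.550 in KD-labelled cells, under 1 FPKM in all 4 libraries, with log2 fold changes of 1.88 and 2.33. Egr1, the most abundant Egr gene and often the first to respond to phorbol ester, was at 10.3 FPKM with DMSO and 8.63 with PMA in 427 cells, and at 5.02 and 9.14 in KD-labelled cells. The 427 PMA library was thus slightly lower and the KD-labelled PMA library higher than its DMSO library, and both PMA values were close to each other. The log2 fold changes of Egr1 were -0.25 and 0.86.

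The 3 Nr4a genes differed from one another. Nr4a1, also known as Nur77, was at 2.85 FPKM with DMSO and 12.1 with PMA in 427 cells, and at 2.35 and 5.34 in KD-labelled cells, with log2 fold changes of 2.08 and 1.18. Nr4a3 (chromosome 4, 48045153 to 48086447) was at 0.157 and 1.015 FPKM in 427 cells, a log2 fold change of 2.62, but at 0.0329 and 0.0532 in KD-labelled cells. The KD-labelled values correspond to an estimated 5 and 9 fragments, and the counting interval of their log2 fold change of 0.56 ran from -1.12 to 2.54. The 427 library with PMA was the only library in which Nr4a3 reached 1 FPKM. Nr4a2, also known as Nurr1, was at 3.09 and 4.84 FPKM in 427 cells and at 3.67 and 2.43 in KD-labelled cells, with log2 fold changes of 0.64 and -0.59.

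Ier2 (chromosome 8, 84661331 to 84662852) was at 25.8 FPKM with DMSO and 48.2 with PMA in 427 cells, and at 16.9 and 33.8 in KD-labelled cells. Its log2 fold changes, 0.90 and 1.00, lay on either side of a 2-fold increase and differed by 0.10. Ier5 was at 30.2 and 27.3 FPKM in 427 cells and at 22.2 and 24.5 in KD-labelled cells. Its log2 fold changes were -0.14 and 0.14. Srf was at 28.3 and 36.3 FPKM in 427 cells and at 23.5 and 27.9 in KD-labelled cells, with log2 fold changes of 0.36 and 0.25.

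With PMA, a more than 2-fold higher level was measured for 5 of the 10 genes in 427 cells (Ier3, Egr3, Nr4a3, Nr4a1, Egr2) and for 5 in KD-labelled cells (Egr3, Ier3, Egr2, Nr4a1, Ier2), and none was more than 2-fold lower. Both counts include Egr2, which was under 1 FPKM in these libraries, and no share of all loci without a minimum is given. Where a minimum of 1 FPKM in either library was required, 9 and 8 genes could be counted, of which 4 and 4 were more than 2-fold higher. Egr3 passed this minimum only through its PMA libraries, and Nr4a3 only through that of 427 cells. Among all loci with a symbol under the same minimum, 3.91% were more than 2-fold higher in 427 cells and 3.51% in KD-labelled cells, and 4.67% and 5.69% were more than 2-fold lower. The median log2 fold change over the 10 genes was 1.39 in 427 cells and 0.93 in KD-labelled cells, beside -0.12 and -0.15 over all loci. Scaling the libraries to their median ratio brought the medians over all loci to -0.02 and -0.03 and moved none of the 10 genes across 0 or across a 2-fold change.

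**Figure D3:**
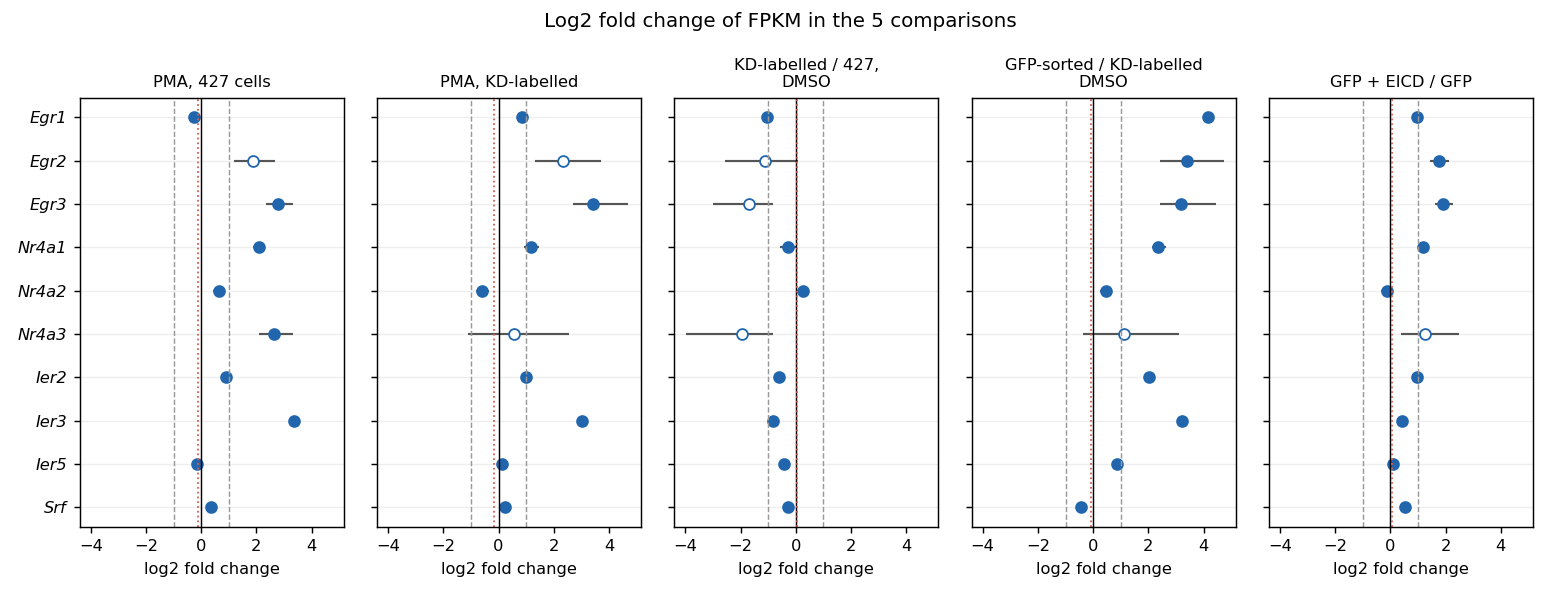
Log2 fold change of each gene in the 5 comparisons, with approximate 95% counting intervals as bars. Grey dashed lines mark a 2-fold change, red dotted lines the median of all loci, and open points genes under 1 FPKM in both libraries. Ier3 and Egr3 are far above 0 with PMA, and Egr1 is farthest from 0 in the comparison of GFP-sorted with unsorted cells.

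The difference between the PMA effects of both cell labels was then taken gene by gene, as the log2 fold change in KD-labelled cells minus that in 427 cells. It was negative for 5 genes and positive for 5, with a median of -0.00459 over the 10 genes and of -2.4e-05 over 10845 loci. The 3 Nr4a genes all had the lower value in KD-labelled cells, by -2.06 for Nr4a3, -1.24 for Nr4a2 and -0.90 for Nr4a1. With 1 added to both libraries the values of Nr4a3 and Nr4a2 were -0.77 and -0.96, and that of Nr4a3 rests on an estimated 5 and 9 fragments in KD-labelled cells. The 3 Egr genes all had the higher value, by 1.11 for Egr1, 0.65 for Egr3 and 0.45 for Egr2, but with 1 added to both libraries Egr3 and Egr2 turned to -0.37 and -0.11. The Ier genes and Srf differed by at most 0.33 in size. In all, 2 of the 10 genes were lower in KD-labelled cells by over 1 on the log2 scale and 1 was higher. The shares of all loci that reached 1 FPKM in any unsorted library were 2.09% and 1.18%. Egr2 was under that minimum, and Nr4a3 passed it only through its level in 427 cells with PMA, which also lowers its difference. With 1 added none of the 10 genes was lower by over 1. No test of these differences is possible with 1 library each, and the DMSO levels enter them too: Egr1 with DMSO was 10.3 FPKM in 427 cells and 5.02 in KD-labelled cells.

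**Figure D4:**
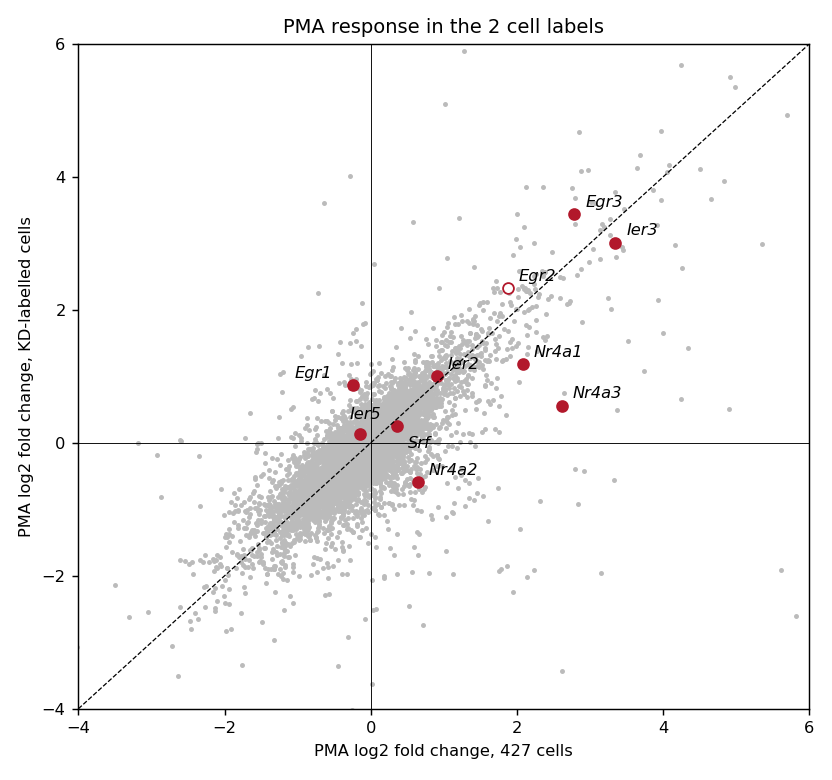
PMA log2 fold change in 427 cells (x axis) against KD-labelled cells (y axis), with all loci that reached 1 FPKM in any of the 4 libraries in grey, the 10 genes in red and Egr2, under 1 FPKM, as an open point. The Nr4a genes lie below the dashed line of equal effects and the Egr genes above it (Egr3 and Egr2 change sides with 1 added to both libraries), and 36 loci fall outside the axes.

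With DMSO alone, 9 of the 10 genes had a lower FPKM in KD-labelled than in 427 cells, Nr4a2 being the exception at 3.67 against 3.09. The median log2 fold change was -0.72, beside 0.05 over all loci. Among the 7 genes that reached 1 FPKM in either library, Egr1 alone was past a 2-fold difference, at 5.02 against 10.3 FPKM and a log2 fold change of -1.03. Of all loci, 2.76% were more than 2-fold lower and 3.11% more than 2-fold higher. Over all 10 genes 4 were more than 2-fold lower and none was more than 2-fold higher, and no share of all loci without a minimum is given. Ier3 and Ier2 had log2 fold changes of -0.83 and -0.61. Egr3, Egr2 and Nr4a3 were under 1 FPKM in both libraries, with log2 fold changes of -1.69, -1.10 and -1.96 that rest on an estimated 10, 8 and 5 fragments in the KD-labelled library. For Egr2 and for Nr4a1, at -0.28, the counting interval included 0. Sppl2b itself had a log2 fold change of 0.44 in this comparison. The part of SPPL2b, of the vector or of the clone in these differences was not tested.

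The highest levels of most of these genes were in the GFP-sorted libraries. Both differ from the KD-labelled DMSO library by transfection, by sorting and possibly by DMSO, serum, time in culture and clone. Egr1 was at 5.02 FPKM in the KD-labelled DMSO library, at 88.8 with GFP and at 171.2 with GFP plus EICD. From KD-labelled DMSO to GFP its log2 fold change was 4.14, rank 17 of 10687 loci by increase. Egr1 was at most 10.3 FPKM in the 4 unsorted libraries, PMA included, so that both sorted libraries stood well apart. Egr2 was at 0.102 and 1.16 FPKM in the KD-labelled DMSO and GFP libraries and Egr3 at 0.101 and 1.00, with log2 fold changes of 3.39 and 3.19. The lower values rest on an estimated 8 and 10 fragments, with counting intervals from 2.44 to 4.73 and from 2.43 to 4.46, and with 1 added to both libraries the fold changes were 0.97 and 0.86.

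Ier3 and Ier2 followed the same direction. Ier3 was at 18.8 FPKM in the KD-labelled DMSO library and 174.5 in the GFP library, a log2 fold change of 3.22. Ier2 was at 16.9 and 69.3 FPKM, a log2 fold change of 2.04. Nr4a1 was at 2.35 and 12.1 FPKM, a log2 fold change of 2.37. These 6 genes were more than 2-fold higher, of 9 that reached 1 FPKM, and none was more than 2-fold lower, beside 3.56% and 4.14% of all loci. With 1 added to both libraries 4 of the 9 were. Over all 10 genes 7 were more than 2-fold higher, with Nr4a3 under the minimum, and no share of all loci without a minimum is given. Egr2 and Egr3 reached 1 FPKM only in the GFP library. Ier5 was at 22.2 and 40.2 FPKM (log2 fold change 0.86), Nr4a2 at 3.67 and 5.01 (log2 0.45) and Nr4a3 at 0.0329 and 0.0825 (log2 1.11, with a counting interval from -0.36 to 3.10). Srf was the gene that was lower, at 23.5 and 17.4 FPKM and a log2 fold change of -0.43.

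Hormone genes of the pancreatic islet were listed above 0 in the sorted libraries alone. The islet hormone genes Ins2, Ins1, Iapp and Gcg, looked up after Ins1 and Iapp had come out as nearest to Egr1 in profile, were listed at 0 in all 4 unsorted libraries. With GFP they were at 27.7, 6.82, 5.25 and 1.95 FPKM, and with GFP plus EICD at 38.9, 8.96, 5.70 and 2.24. Both sorted libraries thus held them and no other library did. The source of these transcripts was not tested. In bulk RNA the number of cells and the RNA per cell cannot be told apart either. The part of these transcripts in the levels of the immediate early genes was not tested. Transfection, sorting, DMSO, serum, time in culture and clone cannot be told apart in this comparison.

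EICD was compared with GFP between both sorted libraries. Egr3 was at 1.00 FPKM with GFP and 3.83 with GFP plus EICD, a log2 fold change of 1.92 with a counting interval from 1.61 to 2.25. Egr2 was at 1.16 and 3.91 FPKM, a log2 fold change of 1.74, and Nr4a1 was at 12.1 and 27.5 FPKM, a log2 fold change of 1.18. These 3 genes were more than 2-fold higher, of 9 that reached 1 FPKM, where 3.55% of all loci under the same minimum were. Over all 10 genes 4 were, with Nr4a3 under that minimum, and no share of all loci without a minimum is given. Of all loci, 0.524% were more than 2-fold lower, and none of the 10 genes was.

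Ier2 and Egr1 lay just under a 2-fold difference. Ier2 was at 69.3 FPKM with GFP and 136.02 with GFP plus EICD, a log2 fold change of 0.97. Egr1 was at 88.8 and 171.2 FPKM, a log2 fold change of 0.95. Ier3 itself was at 174.5 and 235.6 FPKM (log2 fold change 0.43), Srf at 17.4 and 24.99 (log2 0.52), Ier5 at 40.2 and 42.98 (log2 0.09) and Nr4a2 at 5.01 and 4.57 (log2 -0.13, with a counting interval that included 0). Nr4a3 was under 1 FPKM in both libraries, at 0.0825 and 0.207, a log2 fold change of 1.23. The median over the 10 genes was 0.96, beside 0.07 over all loci. The GFP library was used in this comparison and in the one with unsorted cells, so the values of both are not independent. What EICD did and what differed between both transfections for other reasons cannot be told apart, and the islet genes above were also higher in the library with EICD.

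The wider immediate early response was taken from a list of 21 other genes. With PMA, 6 of the 18 that could be counted were more than 2-fold higher in 427 cells, namely Fos, Fosb, Fosl1, Junb, Atf3 and Maff, and none was more than 2-fold lower, beside 3.91% and 4.67% of all loci. In KD-labelled cells 6 of 18 were more than 2-fold higher, with Myc in place of Atf3, and Dusp1, a MAP kinase phosphatase, was more than 2-fold lower with a log2 fold change of -1.11, beside 3.51% and 5.69% of all loci. Myc had a log2 fold change of 1.28 in KD-labelled cells and of 0.99 in 427 cells, just under the limit. Fosb in both cell labels and Fos in KD-labelled cells reached 1 FPKM only with PMA. Fosl1, the Fos family gene with the most sustained response to ERK signals, had the largest values, 3.97 and 4.68. The medians of the list were 0.47 and 0.34, beside -0.12 and -0.15 over all loci. Between KD-labelled and 427 cells with DMSO, 1 of 17 was more than 2-fold lower, Fosl1 at 1.92 against 4.71 FPKM, none was more than 2-fold higher, beside 2.76% and 3.11% of all loci, and the median was -0.21, beside 0.05.

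In the GFP library 13 of 18 were more than 2-fold higher than in the KD-labelled DMSO library, beside 3.56% of all loci. The list median was 1.58, beside -0.08 over all loci, and Fos and Fosb reached 1 FPKM only in the GFP library of this pair. Fosb was at 0.445 FPKM in the KD-labelled DMSO library and 105.3 in the GFP library, and Fos at 0.823 and 148.4, which are log2 fold changes of 7.85 and 7.48. The PMA libraries held Fos at 5.93 and 2.54 FPKM, so for Fos, as for Egr1, the sorted libraries were far above the PMA libraries. With EICD, 3 of 19 were more than 2-fold higher than with GFP alone, namely Atf3 (33.0 and 120.6 FPKM), Arc (3.22 and 8.69) and Klf2 (0.600 and 1.59), beside 3.55% of all loci. Klf2 reached 1 FPKM only with EICD, and the list median was 0.63, beside 0.07 over all loci.

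**Figure D5:**
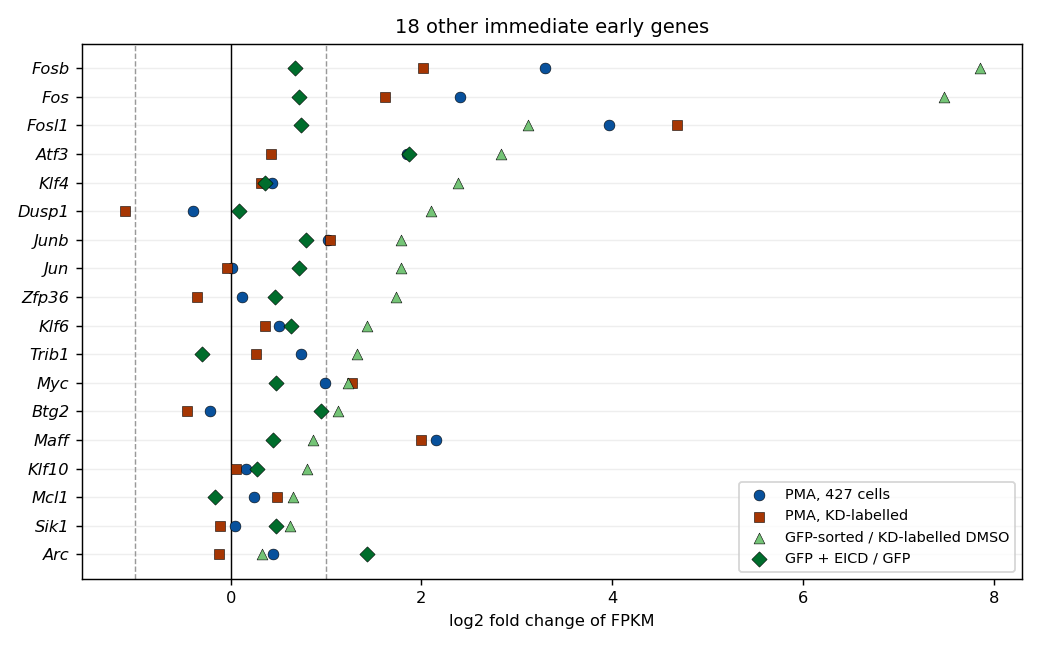
Log2 fold change of FPKM for 18 other immediate early genes in 4 comparisons, ordered by the comparison of GFP-sorted with unsorted KD-labelled cells. Fosb and Fos are highest there, at 7.85 and 7.48, while Fosl1 has the largest PMA value in both cell labels.

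The partners and cytoskeletal targets of the members were counted in the same way. Of the Srf partners Elk1, Elk3, Elk4, Mkl1, Mkl2 and Myocd, 5 could be counted and none was past a 2-fold change in any comparison. The same held for Nab1 and Nab2, corepressors of Egr proteins, and for Rxra and Rxrb, which pair with Nr4a1 and Nr4a2. Of all loci, between 3.11% and 3.91% were more than 2-fold higher and between 0.524% and 5.69% lower, depending on the comparison. For so few genes, a count of none lies close to those shares. Of 11 cytoskeletal and matricellular targets of Srf, 8 could be counted for PMA. Tagln was more than 2-fold higher in 427 cells (log2 1.06, reaching 1 FPKM only with PMA) and Ctgf in KD-labelled cells (log2 1.69), beside 3.91% and 3.51% of all loci, and the medians were 0.58 and 0.37. Actg1, a cytoplasmic actin gene, was at 1368 FPKM in the KD-labelled DMSO library and 661.7 in the GFP library, a log2 fold change of -1.05. It was the 1 gene of 8 that was more than 2-fold lower, beside 4.14% of all loci. Ctgf went the other way, from 17.98 to 35.8 FPKM (log2 0.99), and the median of the 8 genes counted was -0.34, beside -0.08 over all loci. With EICD none of 7 such genes was past a 2-fold change, beside 3.55% of all loci higher and 0.524% lower. Cyr61 had the highest value (log2 0.74) and Ctgf one of -0.70, and the median was -0.36. Ier5l, a relative of Ier5, was between 12.6 and 19.3 FPKM throughout.

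For each member, the loci with the nearest profile over the 6 libraries were found by Euclidean distance on log2 of FPKM plus 1, centred on the mean, among 11052 loci. Nearest to Ier3 were Areg (distance 1.04), Hcar2 (1.08) and Dusp6 (1.10). Junb was among the nearest to Ier2 (0.48), and nearest to Nr4a1 were Ankrd22 (0.64) and Junb (0.77). Egr3 had Zc3h12a (0.46) and Rnd1 (0.49), and Srf had Kansl3 (0.20). Egr2 had Slc3a2 (0.46), Nr4a2 had Mt4 (0.33) and Ier5 had P3h2 (0.14). Nearest to Egr1 were Ins1 (1.10), Iapp (1.55) and Atf3 (1.58), of which Ins1 and Iapp are the islet genes given above. Nr4a3 had Zfp940 (0.24), which like Nr4a3 was highest in 427 cells with PMA. Adding 1 shrinks the differences of genes near or under 1 FPKM, so a near locus can vary far less in fold. Egr2 lay between 0.102 and 3.91 FPKM, and Slc3a2 between 111.6 and 363.1. Distances over 6 libraries of unlike kind describe these libraries and carry no test.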

How the data were processed

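The authors sequenced paired-end TruSeq libraries, aligned the reads with Tophat 2.1.1 to GRCm38, and deposited FPKM per locus, made with Cufflinks and Cuffdiff 2.1.1, in 1 file per library. The submitters' processing notes also list STAR 2.4.0b. FPKM depends on the assembled gene models, which for Egr2, Egr3 and the Nr4a genes include newly assembled isoforms. No member overlaps another locus of the files.

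Log2 fold changes were taken after adding 0.01 to the FPKM of both libraries, which understates differences of low genes. Members and all loci with a symbol were counted past a 2-fold change where either library reached 1 FPKM. No p-value was computed. Depth was estimated from the FPKM step that 1 fragment gives in annotated single-transcript genes of over 2500 bases. Fragments per gene are that depth times FPKM times the longest GENCODE M21 transcript. The 95% counting intervals are exact (Clopper-Pearson), treat these estimates as counts and cover counting error only. Software was Python 3.11.15 with pandas 2.3.3, NumPy 2.4.6, SciPy 1.17.1 and matplotlib 3.10.9.

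Alternatives were other added amounts, other minimum FPKM values, 2 scalings between libraries, annotated genes only, and summed rows. Named were all 10 members, Sppl2b and St14, listed genes past a 2-fold change, and loci among the 3 nearest profiles of each member, some of which are not reported here. The islet genes, and Ctgf and Cyr61 with GFP and EICD, were added after their values were seen. Members and lists were chosen with earlier results of these data known. Samples were grouped by their labels, which give DMSO for 1 KD-labelled library although the treatment protocol mentions only PMA for such cells.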

Additional observations from a re-analysis of the deposited data

Results flagged for a closer look

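The PMA effects of 3 genes had opposite signs in 427 and KD-labelled cells, and the differences between them were not tested, since each value rests on 1 library per condition. Egr1 had log2 fold changes of -0.25 in 427 cells and 0.86 in KD-labelled cells, a difference of 1.11. Nr4a2 had 0.64 and -0.59, a difference of -1.24. Ier5 had -0.14 and 0.14, a difference of 0.28, and its value in 427 cells was close to the median of all loci, -0.12. Under the alternatives tried, these differences ranged from 0.98 to 1.14 for Egr1, from -1.24 to -0.96 for Nr4a2 and from 0.27 to 0.31 for Ier5. The DMSO and PMA libraries of KD-labelled cells do not show a lower Sppl2b than those of 427 cells.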

How the results depend on the processing

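No paired analysis was possible because each condition has 1 library, and for the same reason no library could be left out. Counts here are of genes that reached the minimum FPKM. No share of all loci is given for the alternative settings, so the counts show only how these genes depend on them. With 1 added to both libraries, the number more than 2-fold higher with PMA went from 4 to 1 in KD-labelled cells and from 4 to 3 in 427 cells, the number more than 2-fold lower in KD-labelled than in 427 cells with DMSO from 1 to 0, the number more than 2-fold higher with GFP from 6 to 4, and the number of all 10 genes with a PMA effect lower by over 1 in KD-labelled cells from 2 to 0. The PMA log2 fold changes of Egr3, Ier2 and Nr4a1 in KD-labelled cells were then 0.996, 0.96 and 0.92. Of 60 values for single genes, 17 changed their side of a 2-fold change under that setting and 5 with 0.1 added, among them Ier2 with PMA in KD-labelled cells, which lay at the limit. With a minimum of 0.1 FPKM or none, 4 genes were more than 2-fold lower in KD-labelled cells with DMSO, since Egr2, Egr3 and Nr4a3 were then counted. With a minimum of 10 FPKM, 2 genes were more than 2-fold higher with PMA in 427 cells, 2 in KD-labelled cells and 1 with EICD, since fewer genes were counted. Median ratio scaling, upper quartile scaling, 0.001 added to both libraries and 0.001 added to the EICD library alone moved no gene across 0 or across a 2-fold change. Summed rows and annotated genes only left the values as they were, because no symbol repeats and all 10 genes are annotated. Depth limits Nr4a3, Egr2 and Egr3, which had an estimated 5, 8 and 10 fragments in the KD-labelled DMSO library.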
